A study of Mus musculus with 2 samples.

Results

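The cells described here were chondrocytes of the mouse femur that carried transcripts of Prg4, the gene of the boundary lubricant lubricin, together with Cytl1, which encodes a small secreted protein of cartilage. They were selected on their own counts of unique molecular identifiers (UMIs, each standing for 1 captured transcript). A barcode was taken when it held at least 200 genes, at least 0.5% of its UMIs from Prg4, at least 0.1% from Col2a1, the gene of the main collagen of cartilage, at least 3 UMIs of Cytl1, at least 1 UMI of Sox9, the transcription factor that sets cartilage identity, and under 10% of its UMIs from 4 haemoglobin genes. This gave 128 cells in the untreated library and 293 in the calcitriol library, 421 of the 8553 barcodes with 200 or more genes and of the 10638 barcodes deposited. Because these levels chose the cells, the levels of Prg4, Col2a1, Cytl1 and Sox9 are given below as descriptions only.

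The study profiled single femoral cells to find the osteocytes that answer to calcitriol, the active form of vitamin D. Both groups were C57BL/6J mice of 7 weeks, male by the study's methods, with no transgene or deletion. The untreated group received nothing. The calcitriol group received 3 intravenous injections of 2.5 µg per kg, on successive days, and was taken 24 h after the last. In each group the femurs of 6 mice were pooled into 1 library, so there is no biological replicate and no test between groups. The epiphyses were cut off before the bone was crushed and digested with collagenase and EGTA, and CD45-positive cells were removed on magnetic beads. Articular cartilage lies on the part that was cut away, so how much of it was left on the bone and how many such cells the animals held cannot be told apart.

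Articular cartilage is layered. Cells at its surface secrete lubricin into the joint space and lie in a matrix rich in small leucine-rich proteoglycans, while deeper cells make more type II collagen and aggrecan and border on calcified cartilage and bone. Growth plate chondrocytes share the same collagens but proliferate in columns, enlarge and express Col10a1 before bone replaces them. Vitamin D acts through the nuclear receptor encoded by Vdr, and Cyp24a1, which inactivates vitamin D, is its best known target gene.

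The selected cells made up 2.76% of barcodes with 200 or more genes in the untreated library (95% Clopper-Pearson interval 2.31 to 3.28) and 7.47% in the calcitriol library (6.67 to 8.34). Intervals throughout cover counting error only. Barcodes at or over 10% haemoglobin numbered 2394 in the untreated library and 462 in the calcitriol library. Without them the shares were 5.72% and 8.47%. Library totals were 70266983 UMIs untreated and 60392557 with calcitriol, of which the selected cells held 1970594 and 4921607. The median cell had 14320 UMIs (1234 to 46870) in the untreated library and 15242 (1216 to 126528) in the calcitriol library, and mitochondrial genes took a median of 2.98% and 2.87%. Depth and mitochondrial share were therefore close between the libraries, whereas the median haemoglobin share was 0.125% against 0.0254%. The libraries shared 8 barcodes by sequence, of which 0 belonged to the selected cells.

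The Prg4 limit cut through a continuous range. In the untreated library the lowest shares inside were 0.540%, 0.578% and 0.597% and the highest outside, among cells that met every other limit, were 0.439%, 0.438% and 0.401%. In the calcitriol library the lowest inside were 0.512%, 0.521% and 0.526% and the highest outside 0.495%, 0.491% and 0.484%. Cells that failed on Prg4 alone numbered 95 and 277. The median Prg4 share was 3.95% of a cell's UMIs untreated (0.540 to 22.1) and 3.0% with calcitriol (0.512 to 28.4), and the median Cytl1 count was 172 and 432 UMIs.

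Of the other markers named for superficial articular chondrocytes, Wif1 and Cilp were widely present and Frzb and Msmp were not. Wif1, a secreted antagonist of Wnt proteins, had a UMI in 86.7% of untreated and 88.4% of calcitriol cells. Cilp, which encodes a matrix protein of the middle cartilage zones, had one in 75.8% and 74.4%. Frzb, another secreted Wnt antagonist, reached 34.4% and 48.1%, and Msmp 28.1% and 29.4%. Msmp was concentrated in a few barcodes, since 1 untreated cell held 51.9% of its UMIs. In the endothelial comparison cells (at least 2 of Pecam1, Cdh5, Kdr and Emcn detected, median 8030 and 8619 UMIs), which should lack these genes, Wif1 was seen in 1.37% and 4.12%, Cilp in 1.83% and 8.61%, Frzb in 1.83% and 0.749%, and Msmp in 5.02% and 13.1%. With every cell thinned to 2000 UMIs, Wif1 stood at 75.2% and 68.5% of 125 and 292 selected cells and at 0 and 1.29% of endothelial cells. The label of superficial articular chondrocytes thus had 2 widely present markers beyond those of the selection, so the cells are called Prg4+ Cytl1+ chondrocytes below. Prg4 (chr1:150449412-150466165, minus strand), Cytl1 (chr5:37735519-37739820), Cilp (chr9:65265180-65280605) and Ibsp (chr5:104299171-104311469) are protein-coding genes placed here on GRCm38.

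**Figure D1:**
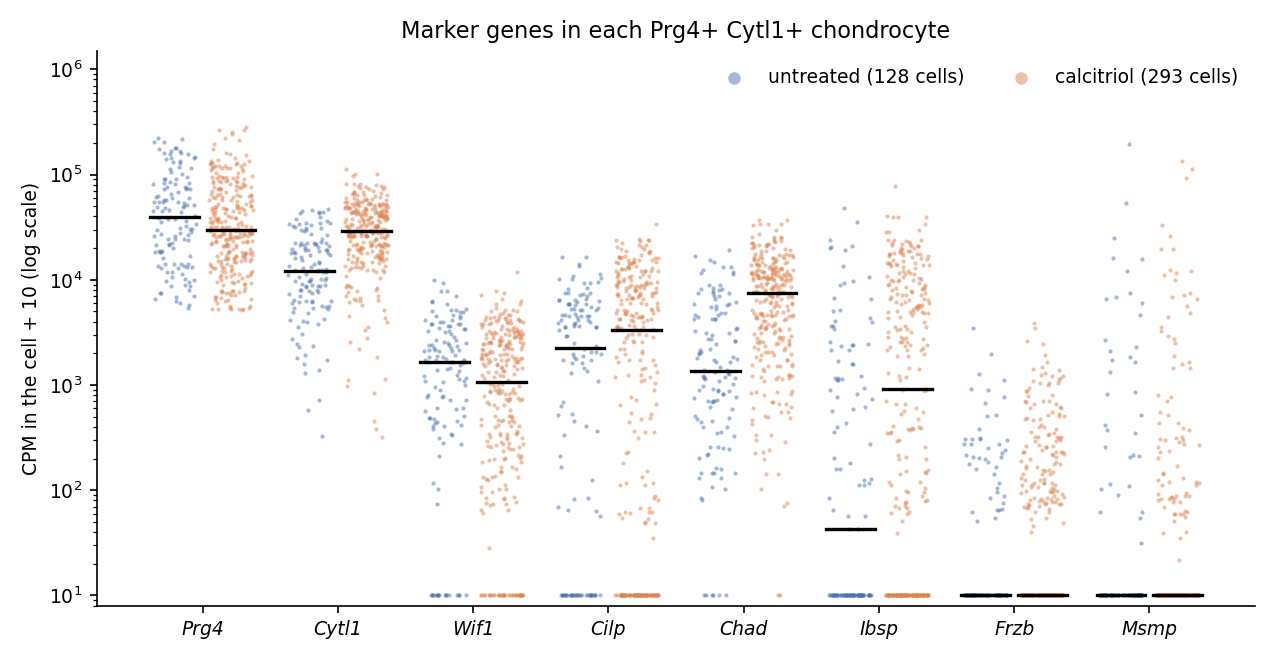
CPM of 8 genes in each Prg4+ Cytl1+ chondrocyte, plus 10, on a log axis, for 128 untreated and 293 calcitriol cells. Each point is a cell, bars are medians and points on the lowest line have no UMI, which is most cells for Frzb and Msmp in both libraries.

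Markers of other cell types were low or partial in these cells. Levels are given as CPM, the UMIs of a gene per 1000000 UMIs of the same cells. Of the osteocyte list (Dmp1, Mepe, Phex, Sost and Fgf23) 0 of 5 genes passed the limit on low counts used below, the summed level was 44.1 CPM untreated and 30.7 with calcitriol, Mepe had the most UMIs, and 2 of 5 genes were at 0 in each library. For smooth muscle, 0 of 5 passed and the sums were 187 and 5.08 CPM, mostly Rgs5. For endothelium 1 of 5 passed (Eng), with sums of 51.8 and 17.7 CPM. For myeloid cells, 0 of 6 passed, 4 were at 0 in each library and the sums were 1.52 and 3.86 CPM, mostly Cd68. For red cells 0 of 7 passed and the sums, mostly Hbb-bs, were 1299 and 289.5 CPM. Fibroblast markers summed to 2559.6 and 1537 CPM, mostly Col1a2, with 5 of 8 passing. Synovial lining markers summed to 2841 and 2520.1 CPM, mostly Hbegf, with 4 of 8 passing, and tendon markers to 3822 and 2276 CPM, mostly Fmod, with 4 of 7 passing. Schwann cell markers summed to 178 and 128 CPM, of which S100b, also a chondrocyte gene, was the one that passed, and 2 of 4 were at 0. Osteoblast markers summed to 4506 and 7353 CPM, mostly Ibsp, with 3 of 7 passing. The genes that define the osteoblast most closely, Bglap, Bglap2, Sp7 and Runx2, did not pass. Hypertrophic chondrocyte markers summed to 4417 and 9843 CPM, again mostly Ibsp, with 4 of 7 passing. Growth plate chondrocyte markers summed to 361 and 426 CPM, with 4 of 8 passing.

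More transcripts of the selected genes were found outside these cells in the calcitriol library. Endothelial comparison cells held 113 UMIs of Prg4 in the untreated library and 10805 in the calcitriol library (42.8 and 3292 CPM), with a UMI in 18.7% and 45.3% of them. The calcitriol sum was uneven over barcodes, with a median Prg4 share of 0, an upper quartile of 0.0123% and a maximum of 15.7%, against a maximum of 0.15% in the untreated library. For Cytl1 they held 14 and 189 UMIs (5.31 and 57.6 CPM), of which 118 of the 189 were in 1 barcode. Spp1, the gene of osteopontin, had 97 and 8554 UMIs there and Ibsp, the gene of bone sialoprotein, 73 and 1050. These values were measured beside the levels of the same genes in the Prg4+ Cytl1+ chondrocytes, and their part in those levels was not tested.

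The cells differed among themselves along Cilp and Ibsp. Cells with more Cilp than Ibsp numbered 80 of 128 (62.5%, 53.5 to 70.9) in the untreated library and 156 of 293 (53.2%, 47.4 to 59.1) in the calcitriol library, and cells with at least as much Ibsp 43 (33.6%, 25.5 to 42.5) and 130 (44.4%, 38.6 to 50.3). The remaining 5 and 7 cells had neither. Ibsp-rich cells were deeper, with median UMIs of 19290.0 against 11954 untreated and 17639.5 against 13596 with calcitriol. Their median Prg4 share was 3.64% against 4.52% untreated and 1.68% against 4.56% with calcitriol. Cells within 2-fold of equal counts were few, 5 and 11 on the Cilp side and 6 and 15 on the Ibsp side. Across cells of a library, log levels of Cilp and Ibsp correlated at r = -0.50 over 128 untreated cells and r = -0.58 over 293 calcitriol cells, and those of Chad, which encodes the cell-binding matrix protein chondroadherin, and Ibsp at 0.64 and 0.69. Cells of a library share its depth and free RNA, and these correlations are descriptions.

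Along that axis several cartilage genes followed Ibsp in both libraries, as a description, since the split used the same counts. Wif1 was at 1522 CPM in Cilp-rich and 3527 CPM in Ibsp-rich untreated cells, and at 815 and 2512 CPM with calcitriol. Omd, the gene of osteomodulin, a small leucine-rich proteoglycan of mineralized tissue, was at 101 and 1203 CPM untreated and 202 and 1372 CPM with calcitriol. Frzb was at 61.1 and 354 CPM, then 83.6 and 455 CPM. Col2a1 stood at 7281 and 16918 CPM untreated and 5430.3 and 14612 CPM with calcitriol. Mgp, which encodes an inhibitor of calcification, lay the other way, at 17993 CPM in Cilp-rich and 7097 CPM in Ibsp-rich untreated cells and 14016 and 5876 CPM with calcitriol. Cytl1 hardly differed between the sides, at 16576 and 17463 CPM untreated and 33703 and 30822 CPM with calcitriol. Spp1 did not keep its pattern between the libraries, with 166 and 1464 CPM untreated against 1529.6 and 1402 CPM with calcitriol.

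**Figure D2:**
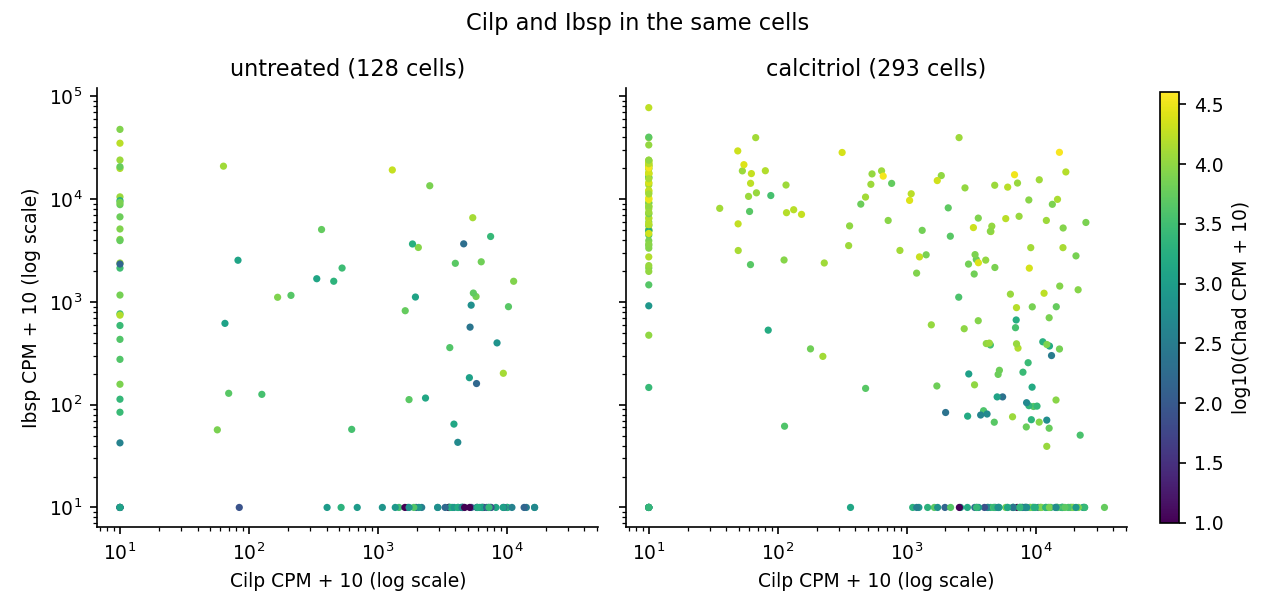
Cilp against Ibsp in each Prg4+ Cytl1+ chondrocyte, as CPM plus 10 on log axes, with colour for Chad, in the untreated library (left, 128 cells) and the calcitriol library (right, 293 cells). Most cells lie near an axis, with Cilp or Ibsp high and the other low, and cells high in Ibsp are also high in Chad.

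Other genes varied with the Prg4 share. Cells were ordered by Prg4 in each library and the 42 untreated or 97 calcitriol cells at either end compared, with Prg4 left out of the totals. The low-Prg4 end had medians of 1.24% and 1.15%, the high end 11.6% and 8.65%, and median UMIs were close (14306 and 15162 untreated, 17025 and 14536 with calcitriol). At the high end the homeobox genes Meis2, Meis1 and Irx5 were more abundant in both libraries. Meis2 had 4 UMIs at the low and 49 at the high end untreated (log2 ratio 3.83) and 15 and 61 with calcitriol (2.39). Irx5 had 4 and 29 UMIs (3.08), then 4 and 22 (2.83). The serine protease gene Htra4 (1.75 and 2.31), the pattern receptor Cd14 (1.60 and 2.64) and complement C4b (3.58 and 1.53) were also higher there. Several matrix genes lay the other way in both libraries. Ibsp was lower at the high end by log2 ratios of -2.74 and -2.75, Alpl, the phosphatase of mineralizing cells, by -2.49 and -2.76, Col1a1 by -2.77 and -2.39, Col3a1 by -3.01 and -2.30, and Igfbp5, which binds insulin-like growth factors, by -2.68 and -2.60. Other matrix genes did not share this pattern, with Spp1 at -2.91 and -0.02, Vcan at -1.97 and 2.24, Fn1 at -0.31 and 0.35 and Dcn at 0.40 and 0.65.

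Comparison with neighbouring kinds of cells showed where the Prg4+ Cytl1+ chondrocytes stood apart. Growth plate comparison cells carried Col2a1, Sox9, Matn3 and Epyc and under 0.5% Prg4 (131 untreated and 210 calcitriol cells). Of 7361 genes counted, meaning 50 or more UMIs over the selected cells and detection in 10% or more of those of either library, 664 (9.02%) were at least 2-fold higher in the Prg4+ Cytl1+ chondrocytes in both libraries and 287 (3.90%) at least 2-fold lower. Genes scarce in the selected cells, such as Matn1 and Ihh, did not pass this limit, so the number lower is held down by it and is not to be read against the number higher. Among the genes furthest above the growth plate cells were Msmp (log2 ratios 10.11 untreated and 7.96 with calcitriol), Cilp (8.11 and 6.28), Casr, the calcium-sensing receptor (7.83, 5.32 to 13.15, and 6.53, 4.65 to 9.60, on 1 and 2 growth plate UMIs), Gas1, a membrane protein that binds hedgehog ligands (7.45 and 5.89), Hdac9, a histone deacetylase (6.51, 3.95 to 11.85, and 5.84, 3.94 to 8.91, also on 1 and 2), Myoc (6.12 and 5.97) and Grem1, a secreted antagonist of bone morphogenetic proteins (5.49 and 5.71). Among those furthest below, of the genes counted, were Ppa1, a pyrophosphatase (-5.40 and -4.59), Pcolce2 (-5.07 and -3.54) and the type IX collagen genes Col9a1 (-3.61 and -3.67) and Col9a3 (-3.36 and -2.98). Cells and thresholds for these groups were chosen on the same counts, so no test goes with them.

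By list, 14 of 22 genes of the superficial zone list were 2-fold higher than in growth plate cells in both libraries and 1 was lower. This and the counts that follow stand beside 9.02% higher and 3.90% lower of all genes counted. The limit on low counts was set in the selected cells, which holds down the numbers lower. Of 32 cartilage matrix genes, 3 were higher, near the share of all genes, and 13 lower. Of 9 genes of the insulin-like growth factor system, 5 were higher, and of 6 secreted Wnt antagonists 4. These cells had fewer median UMIs than the growth plate cells, 14320 against 33825 untreated and 15242 against 31309 with calcitriol.

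Prg4-high comparison cells, with at least 5% Prg4 and under 0.1% Col2a1, numbered 23 and 175. Against them 465 genes (6.32%) were at least 2-fold higher in the Prg4+ Cytl1+ chondrocytes in both libraries and 355 (4.82%) lower. Cartilage genes led: Col9a3 (6.69 and 5.25), Mia (5.45 and 4.26), Cnmd, the gene of the angiogenesis inhibitor chondromodulin (5.29 and 3.97), Frzb (4.61 and 3.95), Col9a1 (4.35 and 4.97) and Col11a2 (4.23 and 3.87), with Ibsp at 8.36 and 3.84. The untreated Prg4-high cells were few, and held 3 UMIs each of Col9a3 (interval 5.14 to 8.97), Cnmd (3.73 to 7.57) and Frzb (3.05 to 6.89) and 4 of Ibsp. In all, 22 of 32 cartilage matrix genes were higher and 2 lower. The Col2a1 limits set the 2 kinds of cells apart on a cartilage gene, so higher cartilage genes follow in part from the selection. Among the genes furthest below were Pcsk6, a proprotein convertase (-4.88 and -3.59), Ly6c1 (-4.18 and -4.17), Col4a1, a basement membrane collagen (-3.93 and -4.38), Ebf1 (-4.08 and -4.31), Cdh13 (-3.71 and -4.05), the receptor kinase Axl (-3.71 and -3.67), the transcription factor Zeb2 (-4.01 and -3.60), Ccdc3 (-3.85 and -3.97), Ecm1 (-3.58 and -4.75) and Igfbp4 (-3.64 and -4.97). Of 17 matrix proteases and inhibitors 10 were lower and 1 higher.

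Between the libraries, 224 of the 7361 genes (3.04%) were at least 2-fold higher in the calcitriol cells and 265 (3.60%) at least 2-fold lower. At 4-fold the numbers were 31 and 20. The median log2 ratio over all genes counted was -0.09. With ratios divided by the median ratio, 264 genes were higher and 206 lower. A 95% counting interval excluded equality for 484 of these 489 genes. They were chosen for a ratio of at least 2-fold, so that number follows in large part from the choice and is no test. The interval takes UMIs as independent and leaves out the spread between cells. With 1 pool a group it also says nothing of the spread between animals or preparations.

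**Figure D3:**
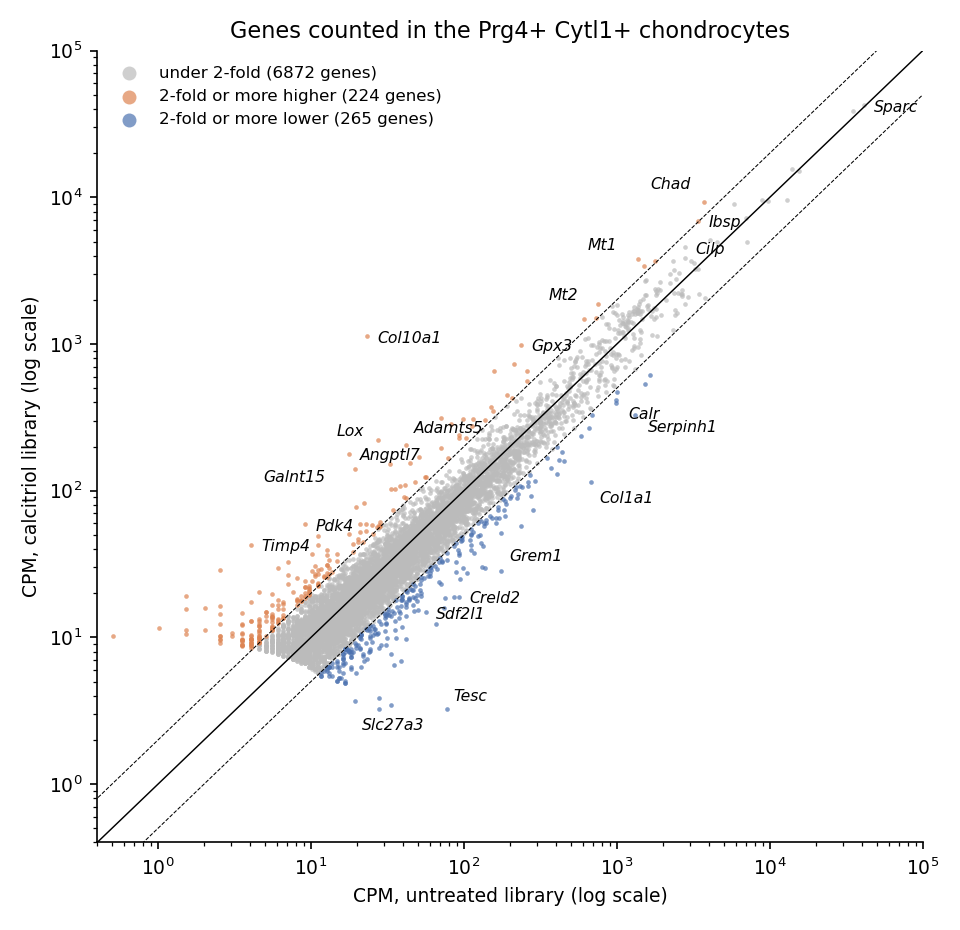
Level of each of 7361 genes in the Prg4+ Cytl1+ chondrocytes of the untreated (x) and calcitriol (y) libraries, in CPM on log axes. The solid line is equality and the dashed lines 2-fold, with 224 genes above and 265 below them.

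By the number of members at least 2-fold lower, the plainest group among the lower genes was the endoplasmic reticulum (ER) list. It holds the chaperones, disulfide isomerases and stress regulators that fold secreted proteins. Of 22 genes 21 had a lower level in the calcitriol library, against 57.6% of all genes counted, and 10 were at least 2-fold lower while 0 were 2-fold higher, against the 3.60% and 3.04% of all genes. The median log2 ratio was -0.64. The 6 interferon-stimulated genes counted were all lower, with a lower median of -0.70, but 1 of them was at least 2-fold lower. Calr, the gene of the lectin chaperone calreticulin, had 1936 UMIs (982 CPM) in 96.9% of untreated cells and 1960 UMIs (398 CPM) in 96.2% of calcitriol cells, a log2 ratio of -1.30 (95% interval -1.39 to -1.21). Hsp90b1, an ER chaperone of the Hsp90 family, was at 995 and 414 CPM (-1.26, -1.36 to -1.17). Both genes were detected in nearly every cell of either library, and it was the number of UMIs per cell that differed. Sdf2l1, a chaperone cofactor, was at 56.3 and 14.8 CPM (-1.93, -2.37 to -1.49) and Manf, a secreted ER stress protein, at 369 and 142 CPM (-1.37, -1.52 to -1.22). Dnajb11, Sec61b, Pdia4, Pdia6, Pdia3 and Trib3 lay between -1.42 and -1.01, and Trib3 was at 0.10 with cells thinned to 2000 UMIs. Hspa5, the master ER chaperone BiP, was at 2488 and 1641 CPM (-0.60, -0.65 to -0.55), Xbp1 at -0.63, Atf4 at -0.09 and Ddit3 at 0.05.

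Outside that list the ER gene Creld2 had 183 UMIs (92.9 CPM) in 63.3% of untreated cells and 93 UMIs (18.9 CPM) in 20.5% of calcitriol cells (-2.30, -2.67 to -1.93). Serpinh1 (chr7:99345376-99353239, minus strand), which encodes the collagen chaperone HSP47, was at 1325 CPM in 96.1% of untreated cells and at 326 CPM in 92.2% of calcitriol cells (-2.02, -2.11 to -1.93). With cells thinned to 2000 UMIs, Serpinh1 was seen in 83.2% of untreated and 38.4% of calcitriol cells and Creld2 in 18.4% and 2.40%. The ER list median was -0.67 in growth plate, -0.63 in Prg4-high, -0.26 in endothelial and 0.21 in erythroid comparison cells, beside medians over the same genes of -0.13, -0.18, -0.05 and -0.05 for all genes counted. Serpinh1 was at -1.48 in growth plate, -1.68 in Prg4-high and -1.03 in endothelial cells, and at -0.75 (-0.92 to -0.58) in erythroid barcodes. The list median was thus also below 0 in growth plate, Prg4-high and endothelial cells, though not in the erythroid barcodes, and whether the degree differs between cell types was not tested.

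Promoters of these genes are shown because several lower ER genes carry the same short element, the ER stress element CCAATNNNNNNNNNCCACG, a textbook binding site of the ER stress response. It was searched on both strands of the 300 bases from 250 before to 50 after each start site in RefSeq (GRCm38.p6), and was chosen after the values of the ER genes were known. The element was found for 37 of 27025 genes with a promoter (0.137%), for 11 of 5890 genes counted here (0.187%), for 5 of 20 matched genes of the ER list (25%), for 5 of 205 genes at least 2-fold lower (2.44%) and for 0 of 165 at least 2-fold higher. The 5 lower genes include Creld2, Calr, Hsp90b1 and Pdia6, so their share restates the reason for the search and is no test. With 0.187% of genes carrying the element, the 0 of 165 decides nothing. The stretches below run 5' to 3' on the strand of the gene and lie before its RefSeq start site, with the conserved letters at either end of the element in capitals. In Creld2 (chr15:88819505-88819553, plus strand) and Calr (chr8:84847060-84847108, minus strand) the element is on the opposite strand, so its complement is capitalized, whereas Pdia6 (chr12:17266476-17266524, plus strand) and Hspa5 (chr2:34772010-34772058, plus strand) carry it on the strand shown.
Creld2: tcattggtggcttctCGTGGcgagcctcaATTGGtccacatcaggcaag
Calr: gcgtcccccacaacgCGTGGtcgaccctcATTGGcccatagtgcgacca
Pdia6: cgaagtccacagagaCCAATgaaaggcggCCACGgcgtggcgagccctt
Hspa5: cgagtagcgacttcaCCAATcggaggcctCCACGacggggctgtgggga
The element begins 126, 162, 98 and 65 bases before the RefSeq start site in that order. In GENCODE, Hspa5 starts at chr2:34771970, so by that start its stretch lies inside the gene. Hsp90b1 holds 2 matches and Canx (log2 ratio -0.61) 1, while no match was found in this window for Sdf2l1, Dnajb11, Pdia4 or Pdia3, which says only that these letters are not in it. Of the printed genes Creld2, Calr and Pdia6 were at least 2-fold lower and Hspa5 was not.

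Matrix and growth factor genes were also among the lower. Col1a1 had 1331 UMIs (675 CPM) in 32.8% of untreated cells and 563 UMIs (114 CPM) in 29.0% of calcitriol cells (-2.56, -2.71 to -2.42), although Col1a2, the other chain of type I collagen, was at 1414 and 1079 CPM (-0.39). In each library 1 cell held about as large a part of the Col1a1 UMIs, 21.1% untreated and 20.8% with calcitriol. Of 32 cartilage matrix genes 3 were at least 2-fold lower (Serpinh1, Vcan at -1.56 and Scrg1 at -1.31) and 2 higher, beside 3.60% and 3.04% of all genes, with a list median of -0.32. Sparc (0.04), Dcn (0.11), Acan (0.09) and Comp (-0.52) stayed within 2-fold. Chad was higher in the calcitriol library. It had 7351 UMIs (3730.3 CPM) in 95.3% of untreated cells and 45923 UMIs (9331 CPM) in 99.3% of calcitriol cells (1.32, 1.29 to 1.36). In endothelial comparison cells it was at 26.9 and 39.6 CPM. Chad was also higher with calcitriol in the growth plate (1.01), Prg4-high (3.71), endothelial (0.56) and erythroid comparison cells (1.11). Pcolce2, which enhances collagen processing, was at 44.1 and 155 CPM (1.82, 1.49 to 2.15), with 38.0% of its calcitriol UMIs in 1 cell.

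Of 17 ligands and antagonists of bone morphogenetic proteins and TGF-beta, 4 were at least 2-fold lower and 1 higher, where 3.60% and 3.04% of all genes were, and the same shares stand behind the counts of the lists that follow. The median was -0.02. Grem1 reached 10% detection only in the untreated library and Chrdl1 only in the calcitriol library. Each entered the count through the library where it was higher. Grem1 had 346 UMIs (176 CPM) in 38.3% of untreated cells and 139 UMIs (28.2 CPM) in 9.90% of calcitriol cells (-2.64, -2.93 to -2.35), and 0 UMIs in endothelial cells of either library. Gdf10, a ligand of the same superfamily, was at 137 and 29.9 CPM (-2.19), Bmp6 at 51.8 and 23.0 CPM (-1.17, but 0.03 in Ibsp-rich cells), and Gdf5, a ligand of joint formation, at 34.0 and 15.2 CPM (-1.16). Chrdl1, a chordin-like antagonist, was at 11.2 and 27.2 CPM (1.29, but -0.07 in Cilp-rich cells). Of 9 genes of the insulin-like growth factor system 3 were lower and 0 higher, Igfbp5 at 453 and 159 CPM (-1.51), Igfbp4 at 46.7 and 16.7 CPM (-1.49) and Socs2, a suppressor of growth hormone signalling, at 91.9 and 39.4 CPM (-1.22). Of 6 secreted Wnt antagonists 2 were lower (Dkk3, -1.73, and Igfbp4), with Wif1 at 2408 and 1703 CPM (-0.50) and Frzb at 189 and 277 CPM (0.55).

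The gene with the lowest ratio was Tesc (chr5:118027743-118061878), which encodes the calcium-binding protein tescalcin. It had 152 UMIs (77.1 CPM) in 32.0% of untreated cells and 16 UMIs (3.25 CPM) in 3.75% of calcitriol cells, a log2 ratio of -4.57 (-5.41 to -3.82). The comparison cells held too few Tesc UMIs to show a direction, 0 and 5 in growth plate, 4 and 8 in endothelial and 3 and 11 in Prg4-high cells. Next came Slc27a3, a fatty acid transport protein (66 and 17 UMIs, -3.28), Ninj2 (55 and 16 UMIs, -3.10) and C1qtnf1 (55 and 19 UMIs, -2.85). After Grem1 and Col1a1 followed Cyfip2, Pcp4l1, Tppp3, Eno3, Creld2 and Lbhd2 at -2.48 to -2.22. Among the 12 lowest, only Col1a1, Creld2 and Lbhd2 reached 10% detection in the calcitriol library. The others, Tesc included, were counted through the untreated library alone, where they were high. Their rank is thus in part set by that limit. Tppp3 is also a gene of the superficial zone list, in which 3 of 22 genes were 2-fold lower (Tppp3, Dkk3 and Gdf5), 0 were higher and the median was 0.00.

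The glucocorticoid-response list, 22 genes known to rise with corticosteroids, stood on the other side. Of 20 counted, 9 were at least 2-fold higher, against 3.04% of all genes, 0 were 2-fold lower, 18 were higher at all, against 42.4% of all genes, and the median was 0.86. Among the 9, Pdk4, Lcn2 and Angptl4 reached 10% detection only in the calcitriol library, and so entered the count through the library where they were higher. Mt1, a metallothionein that binds zinc, had 2707 UMIs (1374 CPM) in 78.9% of untreated cells and 18815 UMIs (3823 CPM) in 97.3% of calcitriol cells (1.48, 1.42 to 1.54), and Mt2 757 and 1863 CPM (1.30). Fkbp5, a cochaperone of the glucocorticoid receptor, was at 47.7 and 115 CPM (1.27, 0.95 to 1.60), and Pdk4, a kinase that shuts off pyruvate dehydrogenase, at 9.13 and 58.9 CPM (2.69, 2.0 to 3.46), with a UMI in 8.59% and 40.6% of cells. Glul, glutamine synthetase, was at 98.4 and 308 CPM (1.64), Sgk1 at 207 and 429.7 CPM (1.06), Zbtb16 at 18.8 and 43.1 CPM (1.20), Lcn2 at 82.2 and 286 CPM (1.80) and Angptl4 at 5.07 and 14.8 CPM (1.55). Lcn2 and Angptl4 rested on single cells in the untreated library, which held 84.6% and 80.0% of their UMIs. Without the cell with the most UMIs in each library their ratios were 3.98 and, on 2 untreated UMIs, 3.65 (1.74 to 6.73). Among cells with more Cilp than Ibsp both were on the other side, at -1.04 and -0.99. Per1, an early target, was at 0.07, Dusp1 at 0.36 and Tsc22d3 at 0.99. The list median was 0.60 in growth plate, 1.01 in Prg4-high, 0.77 in endothelial and 1.55 in erythroid cells, above 0 in every kind of cell compared. All genes counted had medians of -0.13, -0.18, -0.05 and -0.05 in that order. In the erythroid barcodes other lists also lay above 0, with 0.66 for cartilage matrix and 0.92 for superficial zone genes.

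**Figure D4:**
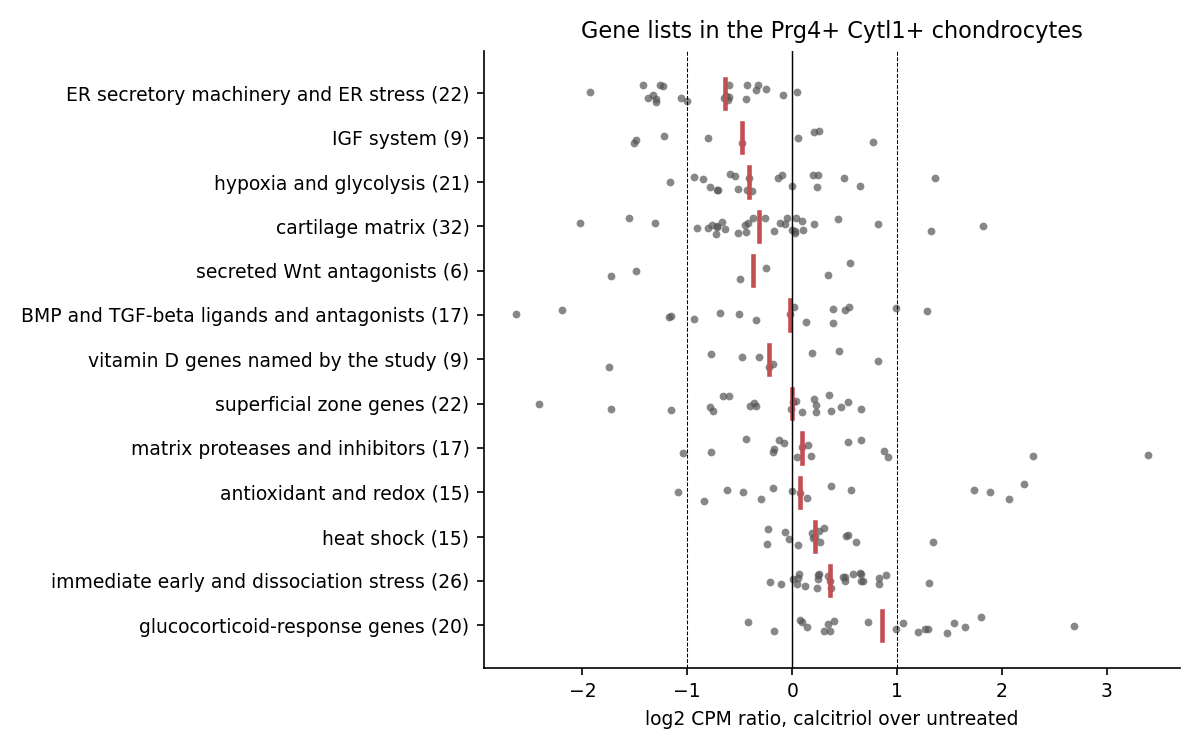
Log2 CPM ratio, calcitriol over untreated, of each counted gene of 13 lists in the Prg4+ Cytl1+ chondrocytes, with the number of genes in brackets. Points are genes, red bars medians and dashed lines 2-fold, and the ER list lies to the left (median -0.64) and the glucocorticoid-response list to the right (0.86).

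Antioxidant genes were split. Of 15, 4 were at least 2-fold higher: Txnip, a thioredoxin inhibitor, at 33.0 and 152 CPM (2.21), Gpx3, a secreted glutathione peroxidase, at 235 and 989 CPM (2.07, 1.93 to 2.21), Gstm1 at 22.3 and 82.7 CPM (1.89) and Hmox1, heme oxygenase, at 50.7 and 169 CPM (1.73). Gpx7, a peroxidase of the ER, was 2-fold lower (-1.09), and the median was 0.07. Of 17 matrix proteases and inhibitors 2 were higher and 1 lower. Adamts5, the aggrecan-cleaving protease, had 82 UMIs (41.6 CPM) in 29.7% of untreated cells and 1007 UMIs (205 CPM) in 64.2% of calcitriol cells (2.30, 1.97 to 2.64). Timp4, an inhibitor of metalloproteases, had 8 UMIs in 1.56% of untreated cells and 210 UMIs in 26.3% of calcitriol cells (3.39, 2.39 to 4.62). A single untreated cell held 87.5% of its UMIs there. In endothelial cells Timp4 was at 600.2 and 240.4 CPM. The ratio of Adamts5 was -0.13 in growth plate, 2.36 in Prg4-high, 1.95 in endothelial and 2.62 in erythroid cells. Mmp3 was lower (-1.04).

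The other genes of the 12 with the largest ratios were mostly scarce in the untreated cells. Of the 12, only Lox and Galnt15 reached 10% detection in the untreated library. The rest were counted through the calcitriol library alone, where they were high, so their rank is in part set by that limit. Lox, the enzyme that crosslinks collagen, had 54 UMIs (27.4 CPM) in 10.9% of untreated cells and 1087 UMIs (221 CPM) in 36.9% of calcitriol cells (3.01, 2.62 to 3.43), with 23 and 390 UMIs in endothelial cells (8.72 and 119 CPM). Galnt15, a glycosyltransferase, was at 19.3 and 139.6 CPM (2.86, 2.38 to 3.37), and also higher in growth plate (3.53), Prg4-high (2.65) and endothelial cells (1.33). Klf15, a transcription factor that also responds to glucocorticoids, had 4 and 78 UMIs (2.96, 1.55 to 4.88). Hpgd, which degrades prostaglandins, had 3 and 95 UMIs (3.66, 2.07 to 5.97), Tango2 3 and 77 (3.36, 1.76 to 5.67), Pnpla7 3 and 55 (2.88, 1.25 to 5.20), Shank2 2 and 57 (3.51, 1.59 to 6.59), Cd164l2 5 and 142 (3.51), and Doc2b 1 and 50 (4.32, 1.78 to 9.66). With so few untreated UMIs the intervals were wide, and Shank2 was at -0.22 with cells thinned to 2000 UMIs and at -0.14 in Ibsp-rich cells.

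Col10a1, the collagen of hypertrophic chondrocytes, had the largest ratio of the genes counted and was spread unevenly over cells. It had 46 UMIs (23.3 CPM) in 9 of 128 untreated cells and 5563 UMIs (1130.3 CPM) in 39 of 293 calcitriol cells (5.60, 5.18 to 6.05). A single cell carried 78.3% of the untreated and another 43.1% of the calcitriol UMIs, and without both the ratio was 6.99. Thinned to 2000 UMIs, it was detected in 1.60% and 5.82% of cells. Of the hypertrophic list, Ibsp was at 3397 and 6909.9 CPM (1.02) and Spp1 at 736 and 1502 CPM (1.03), Alpl at 258 and 279 CPM (0.11), and Ihh, Mmp13 and Panx3 did not pass the limit. Angptl7 was likewise uneven, with 874 UMIs in 11.9% of calcitriol cells against 35 in 3.91% (3.32), of which 1 untreated cell held 88.6%, and the ratio was 6.02 without the top cell of each library.

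The vitamin D receptor gene and its best known target were nearly absent from these cells. Vdr had 1 UMI in the untreated and 7 in the calcitriol cells, in 0.781% (0.0198 to 4.28) and 1.71% (0.556 to 3.94) of them. In growth plate cells, which held more UMIs each, it was seen in 29.8% and 19.5%, and in endothelial cells in 1.83% and 3.37%, so the share in the Prg4+ Cytl1+ chondrocytes was at or below that in endothelium. Whether these few Vdr UMIs came from the cells themselves was not tested. In the Prg4+ Cytl1+ chondrocytes Cyp24a1, Fgf23 and Sost had 0 UMIs in both libraries, and the exact upper limits on cells with a Cyp24a1 UMI were 2.84% and 1.25%. Endothelial cells held 0 and 5 Cyp24a1 UMIs, the latter in 1 cell. In the list of vitamin D genes named in the paper on these mice, 9 of 15 were counted, 1 was at least 2-fold lower (Sulf2, 99.0 and 29.5 CPM, -1.75), 0 were higher and the median was -0.22. Fn1 was at 0.81, Timp1 at -0.18, Pdgfa at -0.32, Igfbp7 at -0.48 and Ccnd2 at -0.78. The paper reported the list for osteocytes with Fgf23, a different cell type, with Fn1 and Igfbp7 lowered and the others, Sulf2 included, raised. That list mixes genes described as raised and as lowered by vitamin D, so its median has no single direction, and it was picked from the same libraries and is not independent evidence of a direction. Of 15 known target genes 6 were counted, of which Spp1 (1.03) was at least 2-fold higher and 0 lower. The Spp1 ratio was -0.06 in Ibsp-rich cells, and 6.15 in endothelial and 6.23 in Prg4-high cells, and the part of transcripts from outside the cell in it was not tested.

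**Figure D5:**
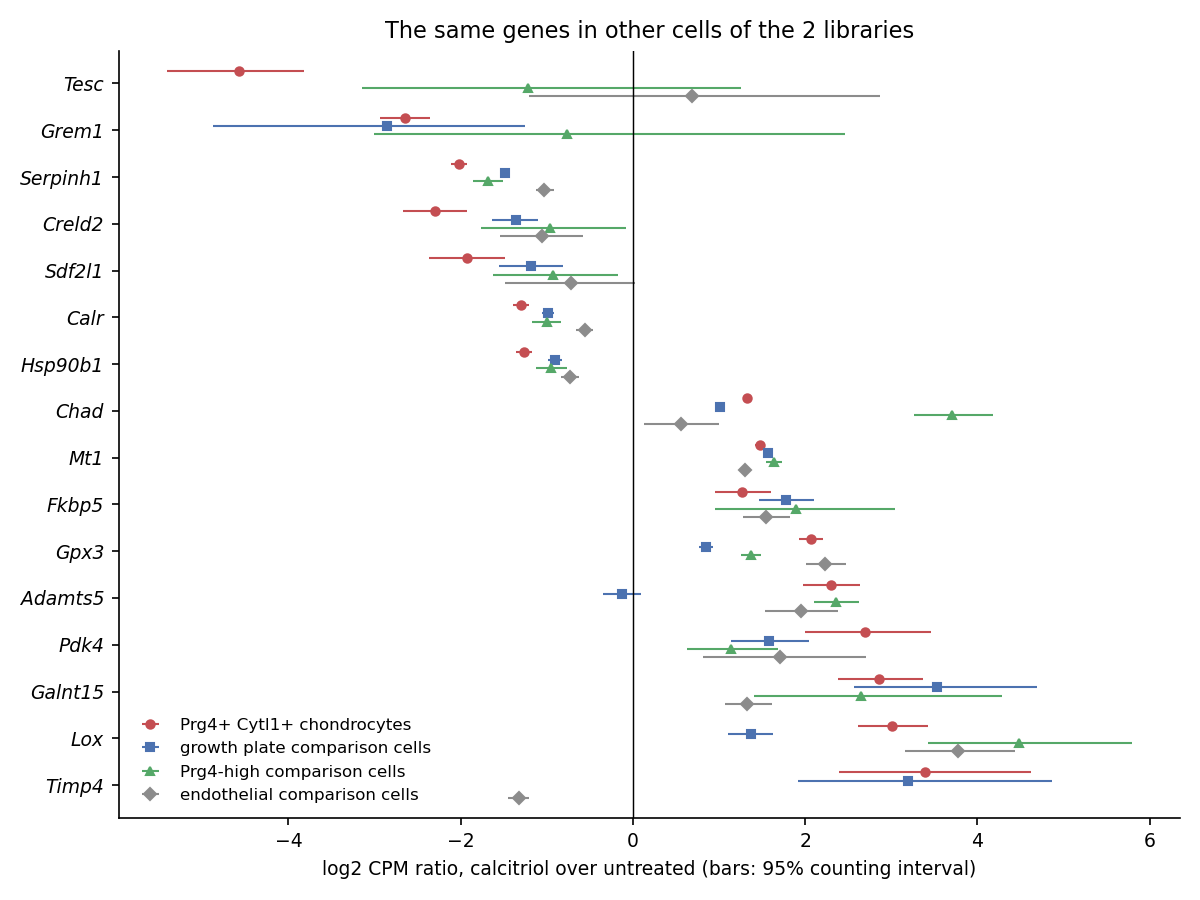
Log2 CPM ratio, calcitriol over untreated, of 16 genes in the Prg4+ Cytl1+ chondrocytes and 3 kinds of comparison cells, with 95% counting intervals. Serpinh1, Calr and Hsp90b1 are below and Mt1, Fkbp5 and Galnt15 above 0 in all 4 kinds, and points are left out where a library had 0 UMIs.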

How the data were processed

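Gene-by-barcode matrices of UMI counts were deposited, 1 for each library. By the submitters' processing notes and the study's methods the authors mapped reads to mm10 with Cell Ranger 4.0.0 and used Seurat 3.2.2 downstream, from which no values are used here. Counts were analysed with scipy 1.17.1, pandas 2.3.3 and numpy 2.4.6 under Python 3.11.15. UMIs of the selected cells were summed per library and divided by their total (CPM). Genes with at least 50 UMIs in both libraries together and a UMI in at least 10% of cells of a library were counted, without mitochondrial, haemoglobin and the 4 selecting genes. Log2 ratios have exact conditional 95% intervals. Their computation was checked on simulated independent counts, which lack the spread between cells, so that check says nothing of how the intervals hold in these cells. A library at 0 was set to 3 counts, and no ratio between libraries was formed at 3 or fewer UMIs in both. Each group being 1 pool, p-values were not computed. Scrublet (scanpy 1.11.5) marked 0.0648% and 0.281% of barcodes and 0 of the selected cells, too few to count as a removal of doublets.

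The cells, lists and comparisons were chosen with earlier results of these data known. The genes named are the markers and selecting genes, the 12 highest and 12 lowest ratios, from each list the extreme, most abundant and 2-fold members, the 10 most different on each side against comparison cells or along Prg4, and Vdr and Cyp24a1. Acan, Dcn, Comp and others outside that rule were named after their values were seen, as were list members under 2-fold. Gene positions are from GENCODE vM21 and promoters from RefSeq (GRCm38.p6). Alternatives were thinning, another weighting of cells, other totals, limits, depth ranges and splits.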

Additional observations from a re-analysis of the deposited data

How the results depend on the processing

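The limits of the data are 1 pool of animals a group and a dissection at the joint ends, and free RNA was not measured. No paired analysis was possible because the groups hold 1 library each. Against 224 higher and 265 lower genes, cells thinned to 2000 UMIs gave 81 and 116, with 2000 genes counted, and no limit on low genes gave 1104 and 924 of 12572. The other alternatives stayed within 1.5 times, but dividing by the median ratio gave 264 higher and 206 lower, so which side is larger depends on the scaling. The share of calcitriol barcodes was 6.48% with Prg4 at 1% or more. Of 74 named genes at least 2-fold apart, the sign held in all under each alternative chosen with the design except thinning (70 of 72), where Trib3 was at 0.10 and Shank2 at -0.22. Fewer stayed 2-fold apart: 56 of 72 thinned, 66 of 74 with Prg4 at 1% or more, 67 by the mean of the cells' own CPM, 66 in Cilp-rich and 61 in Ibsp-rich cells. Among Cilp-rich cells, a split chosen after seeing the data, Lcn2 was at -1.04, Angptl4 at -0.99 and Chrdl1 at -0.07, and among Ibsp-rich cells Spp1 was at -0.06, Shank2 at -0.14 and Bmp6 at 0.03. The cause of these changes was not tested. Without the cell with the most UMIs of the gene in each library, also chosen after seeing the data, all 74 kept their sign and Col10a1 was at 6.99, Angptl7 at 6.02, Lcn2 at 3.98, Timp4 at 6.28 (on 1 untreated UMI, 3.78 to 11.59), Tppp3 at -1.75, Ifitm3 at -0.65 and Mef2c at 0.76, both under 2-fold, and Msmp at 0.10 in place of -0.60. The ER list median ranged from -0.82 to -0.56 and the glucocorticoid-response median from 0.63 to 1.05.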

Other observations

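The counts below stand beside 42.4% of all genes counted that were higher in the calcitriol library and 57.6% that were lower, with a median of -0.09, and beside 3.04% and 3.60% at 2-fold or more. Of 26 immediate early and dissociation genes 24 were higher in the calcitriol library, with Fos at 0.83, Zfp36 at 0.89 and Socs3, the member at 2-fold or more, at 1.30 and a median of 0.36, and the same list had a median of 0.47 in growth plate, 0.27 in Prg4-high and 0.19 in endothelial cells and 1.01 in erythroid barcodes. Of 15 heat shock genes 11 were higher (median 0.22), with Cryab at 1.34. Of 21 hypoxia and glycolysis genes 14 were lower, 66.7% and so near the share of all genes (median -0.41), Mif at -1.16 and Gapdh at -0.55, while Bnip3 was at 1.36. All 6 interferon-stimulated genes counted were lower (median -0.70), with Ifitm3 at -1.08, or -0.65 without the top cells, and H2-D1 at -0.77. Of 12 cytokine, chemokine and prostaglandin synthesis genes 9 were lower (median -0.45), with Cxcl1 at -1.92 on 186 and 123 UMIs. Of 10 hyaluronan and surface glycoprotein genes 8 were lower (median -0.27). Of 17 chondrocyte transcription factors 2 were at least 2-fold higher, Zfp36l1 (1.25) and Mef2c (1.01, and 0.76 without the top cell of each library), with a median of 0.00. Pcna and Hmgb2 were the 2 of 15 cell cycle genes counted (-0.14 and 0.07).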
